A study of Mus musculus with 42 samples.

Results

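The potassium channel genes measured here are the 82 genes whose annotated symbol starts with Kcn, of 18193 genes measured on these arrays. The symbols were read from the platform annotation of probe sets that list a single gene, antisense names ending in os were left out, and a gene with several probe sets was represented by the one of highest average signal in the 42 arrays. Of the 82, 81 are protein-coding and 1, Kcnq1ot1, is a noncoding RNA. By the role of the subfamily, 22 code for pore subunits of voltage-gated channels, 9 for silent modifier subunits and 12 for partners of voltage-gated channels. Another 15 code for inward rectifiers and 12 for tandem-pore (K2P) leak channels. The last 11 code for channels, or their partners, of families grouped here as calcium- or sodium-activated. Kcnu1 was placed with these by family and not by what opens it. The rule of selection used symbols and average signal only, and no difference between groups, but it was set with earlier results of these data known.

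Potassium channels let potassium leave or enter the cell and so set the resting potential, the shape of the action potential and the rate of firing. Striatal projection neurons are known for a very negative resting potential, held by inward rectifiers. They are also known for a slow approach to the first spike, held by A-type and by slowly inactivating voltage-gated channels. PDE10A, a phosphodiesterase abundant in these neurons, breaks down cAMP and cGMP, and several potassium channels are regulated by the kinases that these messengers activate.

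The tissue was snap-frozen striatum or hippocampus dissected from C57BL6 mice, either wild type (WT) or labelled PDE10A KO, which had received vehicle or a PDE10 inhibitor (PDE10i). None of the sources used here gives the compound, its dose, the time after dosing, the age of the mice or the construction of the KO allele. The striatal arrays were 5 of WT mice on vehicle, 6 of WT mice on inhibitor, 5 of KO-labelled mice on vehicle and 4 of KO-labelled mice on inhibitor. The hippocampal arrays were 6, 6, 5 and 5 in that order. Arrays are called below by the number in their title, such as array 25. The labels do not say that each array is a different mouse, so p-values measure only how far these samples vary, which may be technical variation, and the number of arrays limits the precision. Values are log2 signals, a difference of 1 on that scale is a 2-fold difference, and errors on differences are standard errors (SE).

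Several arrays stood apart. The targeted gene, Pde10a, did not pass as lower under the KO label: over its 5 probe sets, the differences of KO-labelled from WT vehicle arrays ran from -0.40 to 0.77 in the vehicle and treated groups of both regions, and none passed. Which of these probe sets lie outside the deleted part is not given, so they do not check the label. A score from 15 chromosome 17 genes that follow the genotype label, with no Kcn gene among them, put 8 arrays on the other genotype's side. The score was 0 for the median WT vehicle array and 1 for the median KO-labelled inhibitor array, and sides were divided at 0.5. In striatum the 8 included array 25 of KO-labelled vehicle (0.08) and arrays 13, 14 and 15 of WT inhibitor (0.577, 0.745 and 0.545). Arrays 13 and 15 thus lay close to the cut. In hippocampus they were arrays 25 and 26 of KO-labelled vehicle (0.01 and 0.16) and 12 and 14 of WT inhibitor (1.05 and 0.68). Results that rest on them are given with and without them. The striatal arrays also differed in the mean signal of 7 measured markers of glutamatergic cortical and hippocampal neurons, from 6.06 to 9.26, against 9.53 to 9.86 in hippocampus. Markers of striatal projection neurons lay between 11.3 and 12.3 in every striatal array and between 7.24 and 7.92 in every hippocampal array. Array 13 of hippocampal WT inhibitor had a mean of 6.82 for hippocampal markers, where the other hippocampal arrays had 8.63 to 9.34. In tissue pieces such as these, fewer cells of a type and less RNA per cell cannot be told apart.

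The widest differences of the potassium channel genes were between the regions. In WT vehicle mice, 40 of the 82 genes (48.8%) differed between striatum and hippocampus, 19 higher and 21 lower in striatum, by limma with Benjamini-Hochberg adjustment over all genes at a threshold of 0.05. Over all genes measured, 33.9% passed (15.9% higher, 17.9% lower). The median size of the log2 difference was 0.33 over the 82 genes and 0.14 over all genes. For 32 of the 82, every striatal array lay on the same side of every hippocampal array, which was so for 21.2% of all genes. Of 46 Kcn genes with more than 1 probe set, none had probe sets that passed in opposite directions, and in 31 all probe sets had the same sign.

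**Figure D1:**
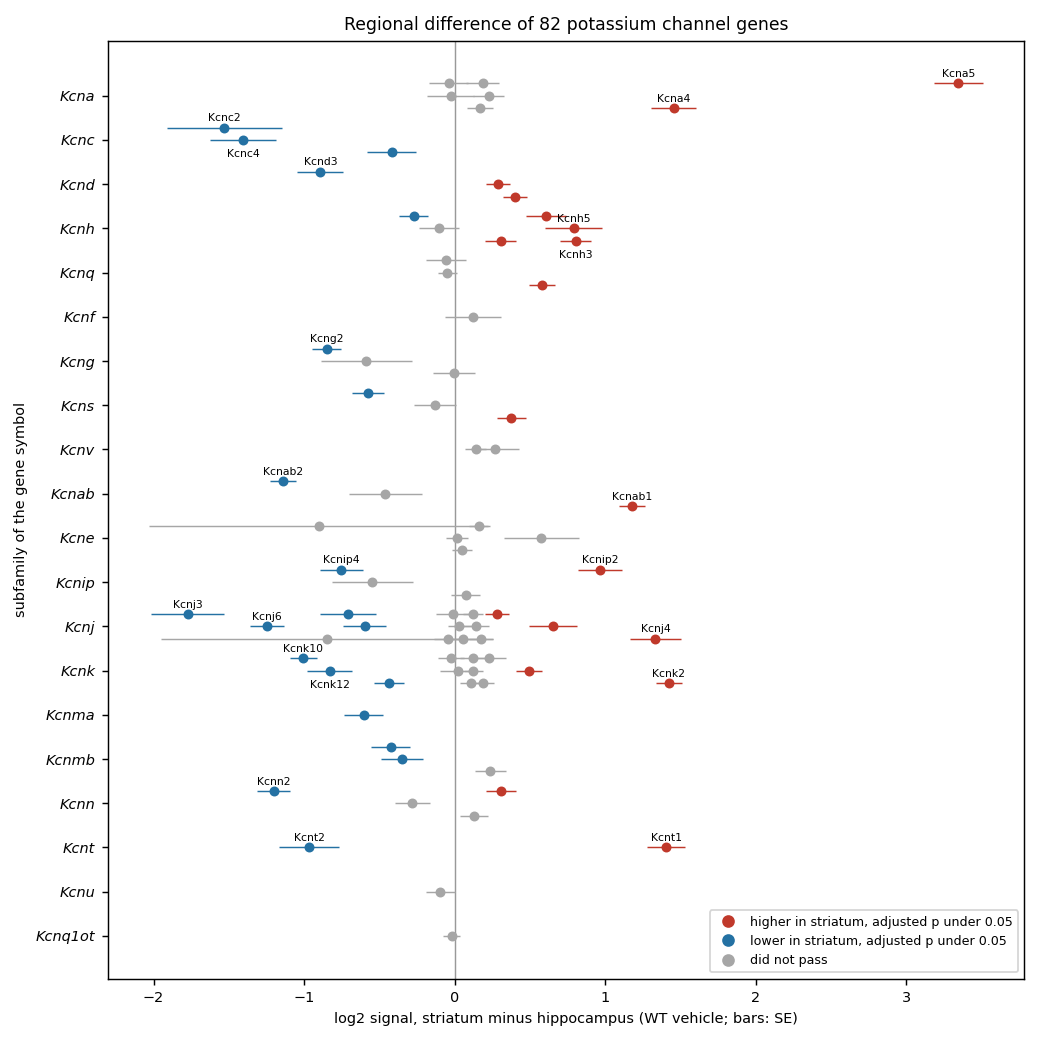
Log2 signal in striatum minus hippocampus (x axis) of the 82 potassium channel genes in WT vehicle arrays, by subfamily (y axis). Points are limma estimates with their SE, coloured by whether they passed at an adjusted p of 0.05; Kcna5 lies at 3.35, and most subfamilies hold points on both sides of 0.

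Kcna5, which codes for the pore subunit Kv1.5, had the largest difference of the 82. In WT vehicle striatum the 5 arrays read 8.12, 8.20, 8.39, 8.24 and 7.75, and in hippocampus the 6 ran from 4.51 to 5.16 with a median of 4.81. No striatal array came near a hippocampal one. The difference was 3.35 ± 0.16, or 10.2-fold (limma adjusted p = 1.65e-19), and it was 3.15 to 3.39 in the 4 combinations of genotype label and treatment. Kcna5 lies on chromosome 6 with Kcna1 and Kcna6, also Kv1 pore subunits, as its next genes in order. Their differences were far smaller. On the brightest probe sets, Kcna1 differed by 0.19 ± 0.11 and Kcna6 by 0.23 ± 0.10, and neither passed (limma adjusted p = 0.197 and 0.0844). Dimmer probe sets of Kcna1 (0.30 and 0.32) and Kcna6 (0.37) passed (limma adjusted p = 0.0436, 0.0231 and 0.0344 over all probe sets). The remaining ones, at 0.09 for Kcna1 and -0.35 for Kcna6, did not pass.

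The 250 bases before the annotated starts of Kcna5 and Kcna6 are shown because their regional differences are unlike in size and the study concerns cAMP. They are RefSeq sequences of GRCm38.p6, both on the minus strand, at chr6:126535556-126535805 and chr6:126740675-126740924. Capitals mark TGACG on either strand, the core of the cAMP response element TGACGTCA.
Kcna5: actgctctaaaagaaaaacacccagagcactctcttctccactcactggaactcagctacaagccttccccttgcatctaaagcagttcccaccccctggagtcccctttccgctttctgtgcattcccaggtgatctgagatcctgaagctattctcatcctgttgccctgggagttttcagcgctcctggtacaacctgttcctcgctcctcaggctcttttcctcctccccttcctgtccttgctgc
Kcna6: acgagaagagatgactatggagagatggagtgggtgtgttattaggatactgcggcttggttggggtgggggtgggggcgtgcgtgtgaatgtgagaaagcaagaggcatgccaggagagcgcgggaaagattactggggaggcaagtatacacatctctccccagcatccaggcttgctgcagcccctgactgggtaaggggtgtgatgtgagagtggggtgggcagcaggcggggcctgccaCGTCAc
The Kcna5 window held 0 matches and the Kcna6 window 1. Over the 88 windows of the 63 Kcn genes matched by symbol in that table, the full TGACGTCA was in 0%, against 1.55% of all 32851 windows of this length. The core, counted on both strands and including any full element, was in 14 of 88 (15.9%), against 17.8%. A match is a description of letters and not a site of binding.

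Among the other voltage-gated pore subunits, the Kv1 member Kcna4 (Kv1.4), an A-type channel, was 1.46 ± 0.15 higher in striatum. Its striatal arrays read 9.55, 9.31, 9.71, 10.12 and 9.15, all above the hippocampal range of 7.76 to 8.40 (median 8.10). The other 5 Kcna genes did not pass on their brightest probe sets. All 3 measured Kv3 genes, whose channels repolarise fast-spiking neurons, were lower in striatum on their brightest probe sets. Kcnc2 differed by -1.53 ± 0.38, Kcnc4 by -1.41 ± 0.22 and Kcnc1 by -0.42 ± 0.16. The dimmer probe sets of Kcnc1 (-0.28, -0.21 and 0.18) did not pass. The Kv4 genes divided, with Kcnd2 (0.40 ± 0.08) and Kcnd1 (0.29 ± 0.08) higher and Kcnd3 (-0.89 ± 0.15) lower. The dimmer probe sets of Kcnd1 (0.18 and -0.08) did not pass. Striatal Kcnd3 arrays read 9.14, 9.56, 9.09, 8.53 and 9.24, below a hippocampal range of 9.88 to 10.13 with a median of 10.02. Of 6 Kcnh genes, coding for EAG, ERG and ELK channels, 4 were higher in striatum, among them Kcnh3 (0.81 ± 0.10), and Kcnh8 was lower (-0.27 ± 0.10). Without any of 5 arrays taken singly (striatal arrays 2, 3 and 5 or hippocampal arrays 3 and 6), Kcnh8 had an adjusted p of 0.0513 to 0.0775 and did not pass. Of the 3 Kv7 genes measured, Kcnq5, a contributor to the M-current, was higher by 0.58 ± 0.09, and the other two did not pass.

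Within WT vehicle striatum, Kcnc2 and Kcnc4 ranked the arrays as the glutamatergic markers did. Arrays 1 to 5 read 9.10, 9.23, 8.42, 6.74 and 9.70 for Kcnc2, with glutamatergic marker means of 8.23, 8.30, 7.29, 6.14 and 8.60. Kcnc4 read 8.09, 8.10, 7.02, 6.76 and 8.15 in those arrays. Array 4, lowest in both genes, also had the lowest marker mean, and its 3' minus 5' signal of Gapdh, which rises as RNA is shortened, was 1.05 against 0.18 to 0.28 in the other 4. KO-labelled inhibitor array 35 resembled it, with Kcnc2 at 6.39, a marker mean of 6.54 and a Gapdh difference of 0.67. Without array 35, Kcnc2 in KO-labelled inhibitor mice differed between regions by -0.96, which did not pass (adjusted p = 0.0575), where with it the difference was -1.68. The part of marker content and RNA length in these values was not tested.

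The partners of voltage-gated channels held opposed pairs. Kcnab1 and Kcnab2 code for the Kv beta 1 and Kv beta 2 subunits, which sit under Kv1 pores and, for beta 1, speed inactivation. Kcnab1 read 11.53, 11.50, 11.81, 11.51 and 11.41 in WT vehicle striatum, against 10.24 to 10.53 in hippocampus (median 10.38), a difference of 1.18 ± 0.09, or 2.26-fold (limma adjusted p = 7.6e-14). Kcnab2 read 10.47, 10.42, 10.13, 10.36 and 10.56, against 11.43 to 11.80 (median 11.50), a difference of -1.14 ± 0.09, or 2.20-fold lower (adjusted p = 2.34e-13). The groups did not overlap in either gene, and the directions were opposite. Kcnip2 and Kcnip4 code for KChIP2 and KChIP4, calcium-binding partners of Kv4 channels. Kcnip2 was 0.97 ± 0.14 higher in striatum and Kcnip4 was -0.75 ± 0.14, that is lower. Kcnip1 and Kcnip3 did not pass on their brightest probe sets. A slightly dimmer probe set of Kcnip1 differed by -0.58 ± 0.20 and passed (limma adjusted p = 0.0283 over all probe sets). Its remaining ones (0.01 and 0.04) did not pass. None of the 5 Kcne genes, which code for small single-span partners, passed.

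**Figure D2:**
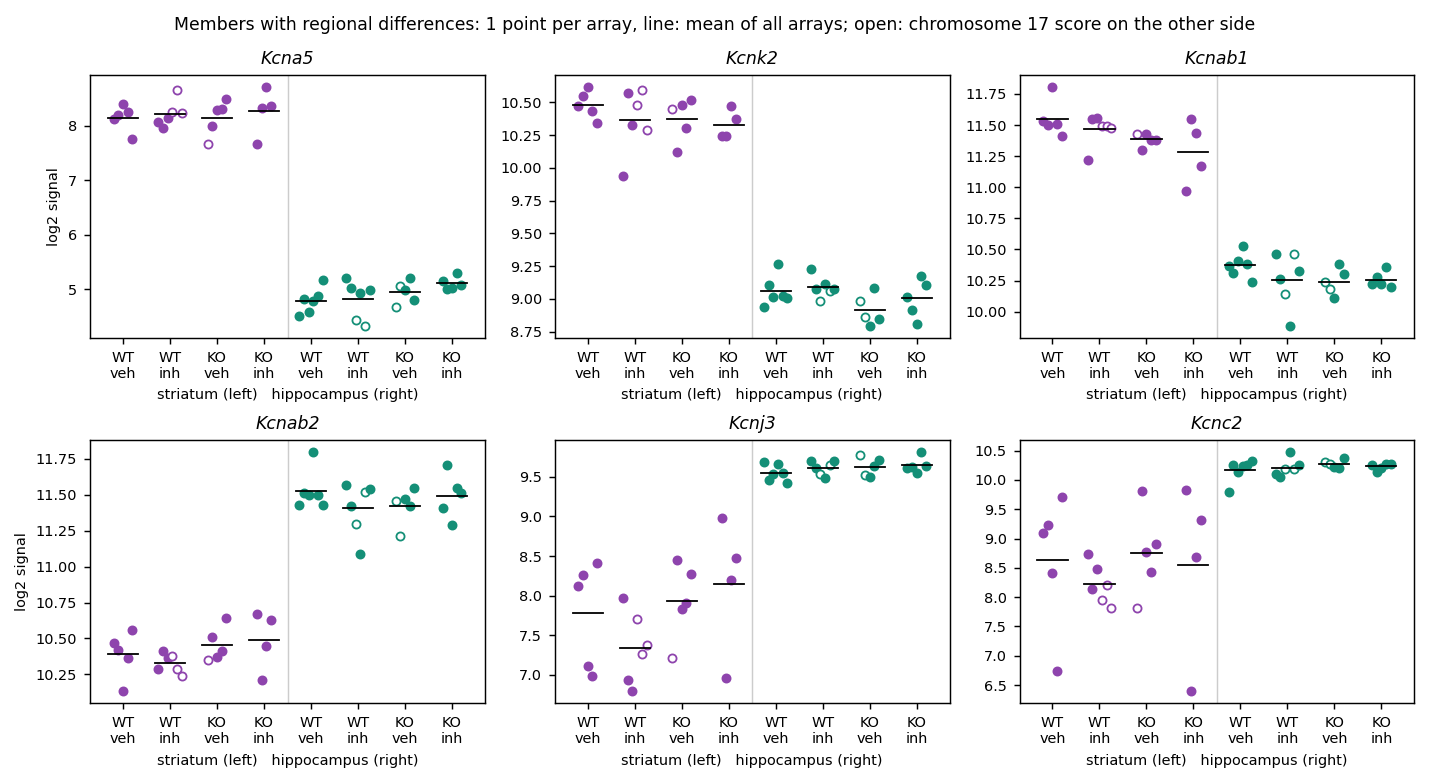
Log2 signal (y axis) of 6 potassium channel genes in each array by group (x axis; WT or KO-labelled, vehicle or inhibitor), striatum in purple on the left and hippocampus in green on the right of each panel. Lines are means of all arrays and open points have a chromosome 17 score on the other genotype's side; Kcna5, Kcnk2 and Kcnab1 lie higher in all striatal arrays than in any hippocampal array, and Kcnab2 and Kcnj3 lower. Kcnc2 spreads widely in striatum, from 6.39 to 9.84, and its top overlaps the lowest hippocampal array at 9.79.

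Of the 9 silent modifier subunits, which form channels only together with other pores, Kcng2 (-0.85 ± 0.10) and Kcns3 (-0.58 ± 0.11) were lower in striatum and Kcns2 was higher (0.38 ± 0.10). Kcns2 was the single gene of the 40 whose sign was not the same in all 4 combinations: the difference was 0.38 in WT vehicle, 0.23 in WT inhibitor, 0.03 in KO-labelled vehicle and -0.10 in KO-labelled inhibitor mice. Its KO-labelled vehicle value was -0.07 without the arrays on the other side of the chromosome 17 score.

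The inward rectifiers differed in both directions. Kcnj4, which codes for Kir2.3, a strong rectifier that holds the resting potential, was 1.33 ± 0.17 higher in striatum (2.52-fold). It read 9.07, 8.82, 9.15, 9.44 and 8.92 against 7.53 to 8.29 (median 7.63). Kcnj12, for Kir2.2, was also higher, by 0.65 ± 0.16. The other measured Kir2 genes, Kcnj2 (Kir2.1, 0.14 ± 0.09) and Kcnj14 (Kir2.4, -0.01 ± 0.11), did not pass. Most G protein-gated subunits were lower in striatum: Kcnj3 (GIRK1) by -1.77 ± 0.24 (3.42-fold), Kcnj6 (GIRK2) by -1.25 ± 0.11 and Kcnj9 (GIRK3) by -0.71 ± 0.19. Kcnj5 (GIRK4) was 0.18 ± 0.08 and did not pass. Kcnj3 read 8.12, 8.26, 7.11, 6.99 and 8.41 in striatum, against 9.43 to 9.69 (median 9.54). Arrays 3 and 4, the lowest of this group in Kcnj3, were also its lowest in glutamatergic markers. In array 34 of KO-labelled inhibitor mice, where the marker mean of 9.26 came nearest to hippocampus, Kcnj3 was 8.98, the highest of the striatal arrays and still below every hippocampal array.

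Kcnj8, a Kir6.1 gene typical of mural cells of vessels, was 0.28 ± 0.08 higher in striatum with overlapping arrays, and vascular markers passed in 1 of 10 genes. Kcnj16 (Kir5.1) was lower by -0.60 ± 0.14. Kcnj10 (Kir4.1), its partner in astrocytes, differed by -0.05 ± 0.09 and did not pass. Of 10 astrocyte markers, 4 were lower in striatum and none higher.

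Among the leak channels, Kcnk2 (TREK-1), which is opened by stretch and lipids and closed by cAMP signalling, was 1.43 ± 0.09 higher in striatum (2.68-fold; limma adjusted p = 2.84e-16). It read 10.47, 10.55, 10.62, 10.43 and 10.34 against 8.94 to 9.26 (median 9.02). Its close relative Kcnk10 (TREK-2) was lower by -1.01 ± 0.09, reading 5.44, 5.20, 5.16, 5.15 and 5.03 against 5.98 to 6.40 (median 6.19); a second, dimmer probe set of Kcnk10 differed by -0.14 ± 0.08 and did not pass. Kcnk12 (-0.83 ± 0.15) and Kcnk4 (-0.43 ± 0.10) were also lower and Kcnk13 (0.49 ± 0.09) higher, and the other 7 did not pass.

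The channels gated by sodium or calcium held another opposed pair. Kcnt1 (Slack) read 9.94, 9.80, 9.76, 9.65 and 9.73 in striatum, all above the hippocampal range of 8.24 to 8.50 (median 8.36), a difference of 1.41 ± 0.13. Kcnt2 (Slick) was lower by -0.97 ± 0.20, at 6.70, 7.26, 6.36, 6.23 and 7.34 against 7.62 to 7.85. Of the SK channels, Kcnn2 was lower (-1.20 ± 0.11) and Kcnn3 slightly higher (0.31 ± 0.10), and Kcnn1 and Kcnn4 did not pass. The BK partners Kcnmb4 (-0.42 ± 0.13) and Kcnmb2 (-0.35 ± 0.14) were lower. Without striatal array 4, Kcnn3 (0.26, adjusted p = 0.0543) and Kcnmb4 (-0.30, adjusted p = 0.0863) did not pass. The BK pore gene Kcnma1 was lower by -0.60 ± 0.13 on its brightest probe set. Its other 4 probe sets ran from -0.23 to 0.14 and did not pass, and with the mean of all probe sets the difference was -0.19 (adjusted p = 0.109).

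Of 19 listed genes of channel complexes whose symbols do not start with Kcn, 16 were measured; 4 were higher in striatum and 5 lower in WT vehicle mice. Higher were Hcn2 (0.32 ± 0.06), a pore of the hyperpolarisation-activated current, the anchoring genes Ank3 (0.32 ± 0.05) and Cntnap2 (0.25 ± 0.08), and Adam22 (0.13 ± 0.05). Lower were Abcc8 (-0.81 ± 0.10), which codes for the sulfonylurea receptor of ATP-sensitive channels, Lgi1 (-0.68 ± 0.10), the Kv4 partner gene Dpp6 (-0.40 ± 0.11), Amigo1 (-0.38 ± 0.08) and Vapb (-0.33 ± 0.06). Dpp6 thus went with Kcnd3 and Kcnip4 and against Kcnd2 and Kcnip2.

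The regional pattern recurred in the other combinations of genotype label and treatment. In WT inhibitor mice 47 of 82 passed, 22 higher and 25 lower in striatum, beside 35.6% of all genes (18.4% higher, 17.2% lower). In KO-labelled vehicle mice 38 passed, 17 higher and 21 lower, beside 27.3% (12.5% and 14.8%). In KO-labelled inhibitor mice 38 passed, again 17 and 21, beside 26.1% (10.6% and 15.5%). Arrays of the regions did not overlap in 31, 31 and 32 of the 82 genes in these 3 combinations, beside 20.1%, 19.7% and 22.7% of all genes. Of the 40 genes of WT vehicle mice, 30 passed in the same direction in all 4 combinations, 14 higher and 16 lower, which is 75%; over all genes, 3176 of 6160 did (51.6%). In total, 30 Kcn genes passed in none of the 4. None passed in opposite directions. Without the arrays on the other side of the chromosome 17 score the counts were 43, 42, 28 and 37 in the same order, beside 34.4%, 29.1%, 20.1% and 26.8% of all genes. Without array 35 of KO-labelled striatum, the last count was 28, beside 19.8% of all genes. Without hippocampal array 13, the WT inhibitor count was 45, beside 34.7%.

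Within a region, few potassium channel genes moved. In WT striatum, none of the 82 passed between inhibitor and vehicle by limma, where 0.181% of all genes did; other fits called 0 to 7, as given below. At an unadjusted p under 0.05 there were 15 of the 82 (18.3%), beside 9.57% of all genes. The smallest p was that of Kcnj6, which read 5.14 to 5.66 (median 5.53) in 6 inhibitor arrays and 6.19, 5.89, 5.88, 5.65 and 5.93 in vehicle. The ranges met at their edges, and the difference was -0.44 ± 0.12 (limma adjusted p = 0.155). With array weights Kcnj6 passed (-0.48, adjusted p = 0.0411), as did Kcna6 (-0.37) and Kcnc4 (-0.90). Glutamatergic markers were lower in the inhibitor group, in 7 of 7 genes with a median of -1.27, none passing. With each array's marker mean as a covariate, Kcnj6 differed by -0.31 ± 0.11 (adjusted p = 0.338), and none of the 82 passed, beside 0.055% of all genes.

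Under the KO label, 1 gene passed in vehicle striatum, Kcns2, which codes for Kv9.2, a modifier of Kv2 channels (0.137% of all genes passed, 0.077% lower). WT vehicle arrays read 9.11, 9.07, 9.20, 9.26 and 9.00, and KO-labelled vehicle arrays 8.97, 8.42, 8.53, 8.42 and 8.57. The groups did not overlap, which was so for 1 of the 82 genes and 1.24% of all genes. The array at 8.97 was array 25, with a chromosome 17 score on the WT side. The difference was -0.55 ± 0.09, 1.46-fold lower (limma adjusted p = 0.0183; n = 5 against 5). In KO-labelled inhibitor striatum Kcns2 read 8.61, 8.41, 8.46 and 8.59, lower than WT vehicle by -0.61 ± 0.10 (adjusted p = 0.0141; 0.11% of all genes passed, 0.0715% lower); the WT vehicle arrays are shared by both comparisons. In the latter, Kcns2 and Kcnh3 did not overlap between groups, 2 of the 82 beside 2.67% of all genes. WT inhibitor arrays lay between 8.67 and 8.99, just below all WT vehicle arrays and not past the threshold (-0.32 ± 0.09, adjusted p = 0.198); 1 of the 82 genes did not overlap there, beside 1.34% of all genes. In hippocampus the 4 groups overlapped, from 8.15 to 9.00.

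**Figure D3:**
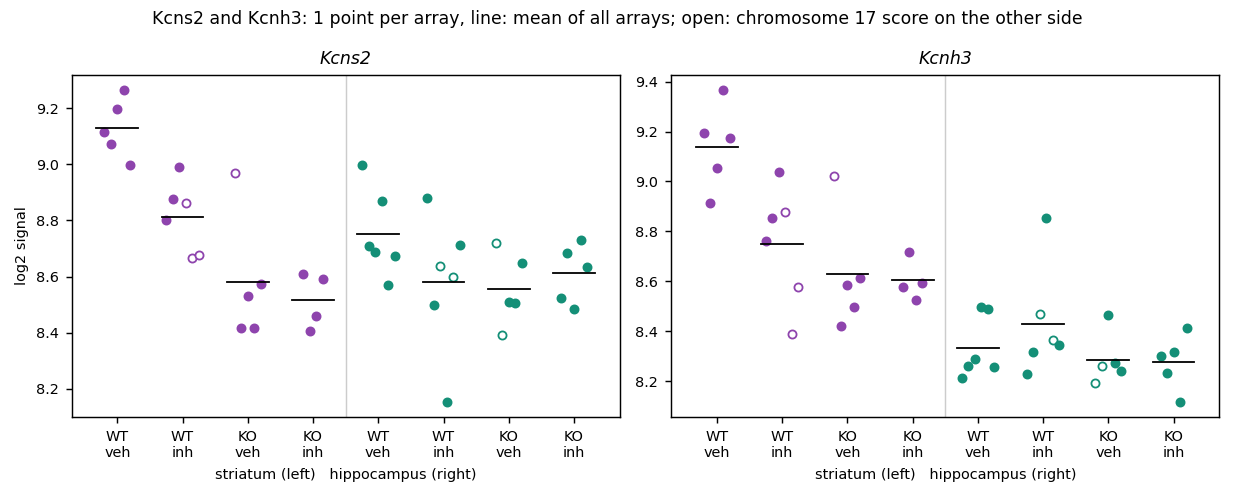
Log2 signal (y axis) of Kcns2 and Kcnh3 in each array by group (x axis; WT or KO-labelled, vehicle or inhibitor), striatum in purple and hippocampus in green. Lines are means of all arrays and open points have a chromosome 17 score on the other genotype's side; in Kcns2 the KO-labelled striatal arrays lie at 8.41 to 8.61 except the open point at 8.97, against 9.00 to 9.26 in WT vehicle.

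The Kcns2 call under the KO label depended on single arrays. Without the arrays on the other side of the score the difference was -0.64 ± 0.07 (limma adjusted p = 2.42e-04). Leaving out, from each striatal group, its array with the largest Gapdh difference gave -0.47, which did not pass (adjusted p = 0.181), and with the 2 groups fitted alone the adjusted p was 0.121. Without KO-labelled array 26, 28 or 29 or WT array 3 or 4, the adjusted p was 0.0569, 0.0734, 0.0596, 0.0588 and 0.066. For treated KO-labelled against WT vehicle arrays, the call ended without the highest Gapdh arrays (0.108) and without KO-labelled array 37 (0.0828) or 39 (0.0585) or WT array 3 (0.0582). A dimmer probe set of Kcns2 differed by -0.27 ± 0.10 under the KO label and did not pass (adjusted p = 0.63 over all probe sets).

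Kcnh3, which codes for the ELK-type pore Kv12.2 of forebrain neurons, had a like profile without passing when all arrays had equal weight. With array weights it passed under the KO label (-0.53, limma adjusted p = 0.0264). In treated KO-labelled against WT vehicle striatum it also passed with array weights (-0.55, limma adjusted p = 0.0295). WT vehicle striatum read 9.19, 8.91, 9.05, 9.37 and 9.17, and KO-labelled vehicle striatum 9.02, 8.42, 8.58, 8.50 and 8.61, the first of these again array 25. The difference was -0.51 ± 0.12 (limma adjusted p = 0.107). Without the arrays on the other side of the score it was -0.61 ± 0.09 and passed (adjusted p = 0.00235), and a second bright probe set then differed by -0.68 ± 0.09, while 2 dimmer ones differed by -0.16 each and did not pass. Treated KO-labelled striatum differed from WT vehicle by -0.54 ± 0.13 (adjusted p = 0.114), and by -0.54 ± 0.09 in the fit without those arrays (adjusted p = 0.00727). Kcns2 and Kcnh3 were the 2 of the 82 that passed there, both lower, beside 0.616% of all genes (0.313% lower). In hippocampus Kcnh3 lay between 8.12 and 8.85 in all groups. The test of whether the KO label acted differently in striatum and hippocampus gave -0.46 ± 0.15 for Kcnh3 (limma adjusted p = 0.706). None of the 82 passed it, beside 0.0495% of all genes. At an unadjusted p under 0.05 there were 5 (6.1%), near the 5.29% of all genes.

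In KO-labelled striatum the inhibitor moved none of the 82 by limma (0% of all genes passed). Kcnj2 (-0.28 ± 0.11) was the 1 gene at an unadjusted p under 0.05, 1.22% of the 82 beside 1.41% of all genes. No gene of the 82 was without overlap, beside 0.533% of all genes. None passed the test of whether the inhibitor acted differently by genotype label (0% of all genes passed). At an unadjusted p under 0.05, 12 of the 82 (14.6%) did, beside 7.4% of all genes. In hippocampus none of the 82 passed limma in the 5 comparisons of groups, with 1 to 4 genes each at an unadjusted p under 0.05. That is 1.22% to 4.88% of the 82, beside 3.82% to 11.8% of all genes, and it was the lower share in each of the 5. No Kcn gene had groups without overlap for the inhibitor in WT, the KO label, the inhibitor in KO-labelled mice or treated KO-labelled against WT vehicle mice, beside 0.55%, 0.588%, 0.528% and 1.15% of all genes. The smallest p belonged to Kcne1 under the inhibitor in WT (0.17 ± 0.06), Kcnmb2 under the KO label (0.21 ± 0.10) and under the inhibitor in KO-labelled mice (-0.22 ± 0.10), Kcnk15 for the dependence of the inhibitor on genotype label (-0.22 ± 0.08) and Kcng2 in treated KO-labelled against WT vehicle (0.24 ± 0.10). Of all genes 0% passed in these, except 0.033% in the last. Without the hippocampal arrays on the other side of the score, the 5 counts of genes past the threshold were also 0. Of all genes, 0.0824% then passed for the KO label, 0.137% for treated KO-labelled against WT vehicle and 0% for the others. None of the 16 measured channel complex genes passed in the 5 striatal comparisons.

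Without arrays 13, 14, 15 and 25, however, 7 of the 82 genes passed between inhibitor and vehicle in WT striatum (limma, 3 inhibitor against 5 vehicle arrays), 5 higher and 2 lower, beside 4.23% of all genes (3.12% higher, 1.11% lower). Kcne1l codes for a single-span partner that lowers current through other pores. It read 7.59, 7.48 and 7.55 in inhibitor arrays 10, 11 and 12, against 6.55, 6.03, 6.21, 6.42 and 6.13 in vehicle arrays. The groups did not overlap, and the difference was 1.27 ± 0.12, or 2.42-fold (limma adjusted p = 1.48e-05). The inhibitor arrays 13, 14 and 15 read 6.66, 6.07 and 6.71, near the vehicle range. KO-labelled array 25 read 7.49, with the 3 inhibitor arrays, where the other KO-labelled vehicle arrays read 5.66 to 5.84. With all arrays the difference was 0.74 ± 0.30 and did not pass (adjusted p = 0.404).

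Kcna1 and Kcna2 divided the arrays in the same way. The genes described here were chosen because they passed without the 4 arrays. That choice favours genes in which those arrays lie apart, so the division is partly built in and is not separate support. Kcna1 (Kv1.1), a low-threshold channel of axons, read 11.69, 11.62 and 11.74 in arrays 10, 11 and 12, against 10.91 to 11.25 in vehicle and 10.98 to 11.25 in arrays 13, 14 and 15; array 25 read 11.54. Its difference without the 4 arrays was 0.58 ± 0.09 (limma adjusted p = 0.00172), and 2 further probe sets differed by 0.54 ± 0.10 and 0.49 ± 0.09; the fourth and dimmest differed by 0.03 and did not pass. Kcna2 (Kv1.2), which combines with Kv1.1 in axons, went the other way: 9.51, 9.30 and 9.42 against 9.84 to 10.16 in vehicle, with array 25 at 9.41 and the other KO-labelled vehicle arrays at 9.95 to 10.34. Its difference was -0.59 ± 0.10 (adjusted p = 0.00315), and a second bright probe set gave -0.64 ± 0.10; 2 dimmer ones gave -0.17 ± 0.33 and -0.09 ± 0.14 and did not pass. Kcna1 and Kcna2, subunits of shared channels, thus differed in opposite directions in these arrays.

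Kcnj4 was higher by 0.69 ± 0.14 without the 4 arrays and Kcnip2 by 0.56 ± 0.11 (limma adjusted p = 0.00859 and 0.00843). Both were also higher in striatum than hippocampus in all groups. Array 25 read 9.78 for Kcnj4 and 12.16 for Kcnip2, above all other KO-labelled striatal arrays. Kcnh1 (EAG1) was higher by 0.44 ± 0.10, and Kcng1 (Kv6.1), a silent modifier, lower by -0.74 ± 0.16. The division was less clear in these: for Kcnh1, array 13 at 9.38 was level with array 10 at 9.37, and for Kcng1, array 25 at 6.40 lay close to array 26 at 6.49. The other Kcng1 probe set (0.03) and the other 2 of Kcnip2 (0.88 ± 0.38 and 0.05) did not pass. For Kcnip2, arrays 13 and 15 at 11.64 and 11.57 lay above the vehicle range of 11.23 to 11.48.

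**Figure D4:**
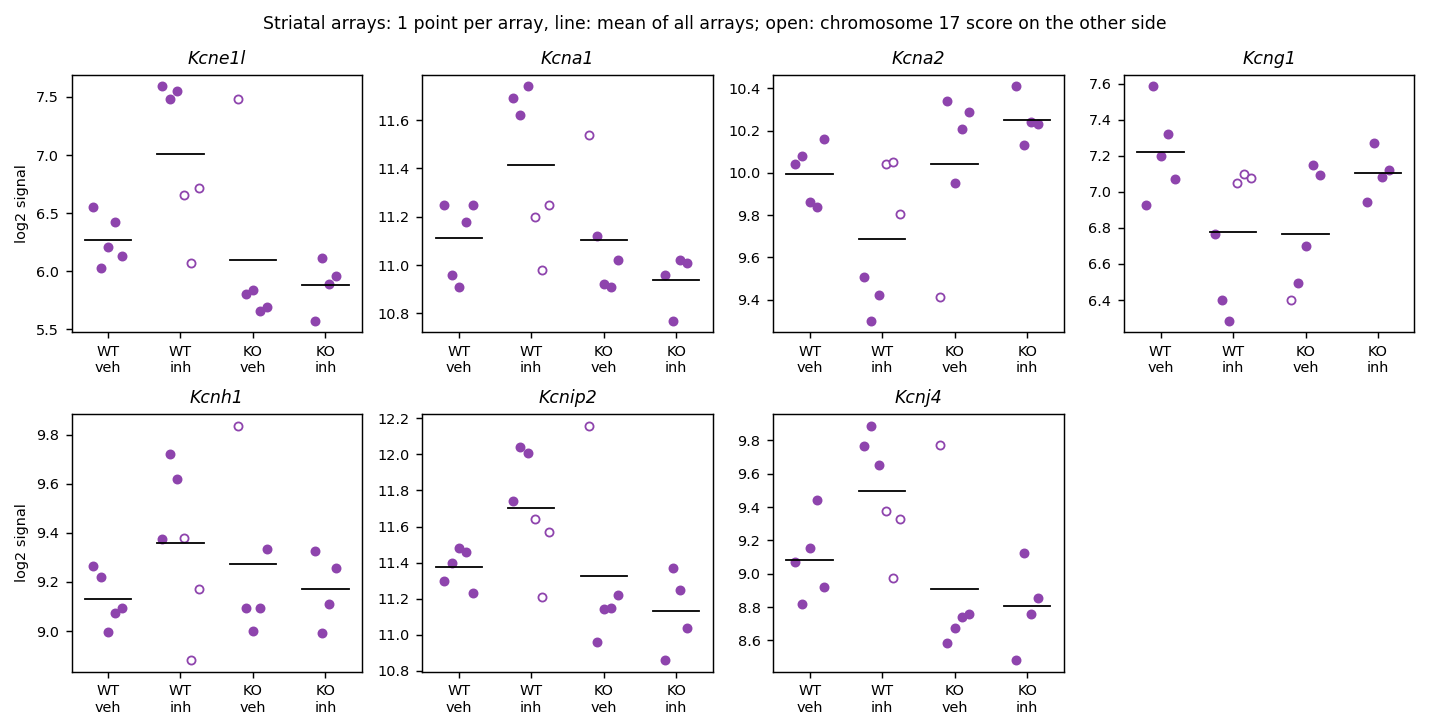
Log2 signal (y axis) in striatal arrays of the 7 potassium channel genes that passed between inhibitor and vehicle in WT without arrays 13, 14, 15 and 25, by group (x axis). Open points are these 4 arrays and lines are means of all arrays. In Kcne1l, Kcna1 and Kcna2 the open KO-labelled point lies with the filled WT inhibitor points. The open WT inhibitor points there lie in or near the vehicle range. The 7 genes were chosen by the fit without the open points, which favours genes divided in this way.

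Vascular markers moved with the same arrays. The mean of 10 was 8.63, 8.69 and 8.72 in arrays 10, 11 and 12 and 8.66 in array 25, and lay between 8.02 and 8.38 in the other 16 striatal arrays. Kcnj8 read 6.39, 6.29 and 6.18 in arrays 10, 11 and 12, beside 5.97 to 6.29 in vehicle. Glutamatergic means in arrays 10 to 12 were 6.06, 6.99 and 6.47, and 7.78 in array 25. The part of vascular or cortical content in the 7 genes was not tested.

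Without those 4 arrays, 3 genes passed the test of whether the inhibitor acted differently by genotype label in striatum (0.868% of all genes, 0.209% positive and 0.66% negative): Kcne1l by -1.14 ± 0.17, Kcna1 by -0.64 ± 0.13 and Kcna2 by 0.64 ± 0.14. For the test of whether it acted differently in WT striatum and WT hippocampus, with the 4 hippocampal arrays also left out, 5 passed (4.31%, 3.3% positive and 1.02% negative): Kcne1l (1.61 ± 0.25), Kcna1 (0.64 ± 0.12) and Kcnip2 (0.63 ± 0.16) in the positive direction, Kcna2 (-0.63 ± 0.15) and Kcng1 (-0.66 ± 0.19) in the negative. With all arrays, none of the 82 passed either test (0% and 0.214% of all genes passed). At an unadjusted p under 0.05 there were 12 for genotype label (14.6%, beside 7.4% of all genes) and 10 for region (12.2%, beside 12.7%). Under the KO label, Kcns2, Kcnh3 and Kcne1l (-0.52 ± 0.11, adjusted p = 0.0357) passed without array 25 and the other 3 (0.797% of all genes passed, 0.434% lower).

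Kcne2 and Kcnj13 are genes typical of choroid plexus, the tissue that makes cerebrospinal fluid. In WT vehicle striatum Kcne2 read 4.48, 7.99, 6.96, 4.61 and 4.51, and Kcnj13 read 5.26, 8.89, 8.65, 5.24 and 6.23 in the same arrays. Arrays 2 and 3 were high in both, and these had means of 8.57 and 8.15 for choroid plexus markers, against 6.18 to 6.45 in the other 3. Over all 20 striatal arrays, Kcne2 lay between 6.96 and 9.57 in the 7 with a marker mean over 7 and between 3.92 and 5.39 in the other 13. In hippocampus it lay between 5.96 and 8.67 in 14 arrays and between 3.81 and 4.90 in the other 8. Neither gene passed between regions (-0.90 ± 1.12 and -0.85 ± 1.10).

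**Figure D5:**
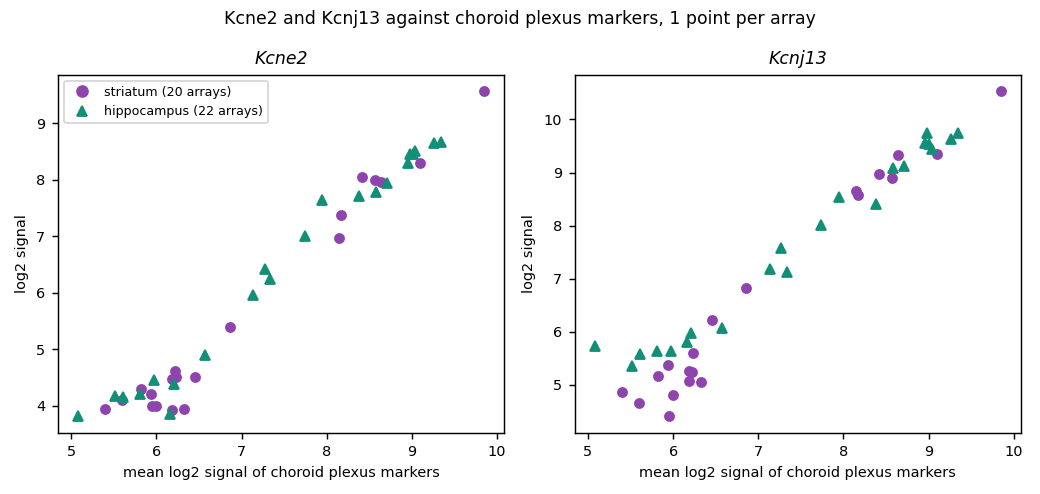
Log2 signal of Kcne2 and Kcnj13 (y axes) in each of 42 arrays against the mean log2 signal of 9 measured choroid plexus markers (x axes), striatum as circles and hippocampus as triangles. In both genes the arrays with a marker mean over 7 lie above the others, with no split by region.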

How the data were processed

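Biotin-labelled cRNA from 42 tissue samples was hybridised to Affymetrix arrays, per the labels. The table the authors deposited holds log2 signals of 45101 probe sets. The submitters' processing notes name RMA, without a version. RMA normalizes quantiles across arrays, so a difference in total RNA is not seen. Array medians lay between 6.05 and 6.12.

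Of the probe sets, 64 were controls, 932 listed several genes and 9160 listed none, and these were not used. The 34945 with a single gene were named by the platform annotation and, for 34741, the RefSeq table of GRCm38.p6; 204 kept the annotated symbol. The 82 genes had 165 probe sets, and 2 antisense probe sets were left out. The deposited log2 signals entered limma (version 3.58.1, under R 4.3.3; lmFit and eBayes, two-sided), with Benjamini-Hochberg adjustment over 18193 genes and a threshold of 0.05. Comparisons within a region shared a fit of its 4 groups, and contrasts between regions used all 8 groups. The fits were tested on simulated data. Alternatives were array weights, the mean of all probe sets, genes above the median signal, only the groups compared, the glutamatergic marker mean as a covariate (striatum), leaving out each array, the arrays on the other side of the chromosome 17 score or the highest Gapdh arrays, and a replicate block.

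The members, gene lists (119 genes, 108 measured), tests and alternatives were chosen with earlier results of these data known. Named genes were: in WT vehicle regional differences, the 8 largest in each direction and the smallest p of each subfamily; elsewhere, up to 6 past the threshold in each direction, or else the smallest p; and Kcne2, Kcnj13, Kcnj8, Kcnj10, Kcnj16, Kcns2, Kcnj4, Kcnip2, Kcnab1 and Kcnh8. Other genes were named after their values were seen. The chromosome 17 score of a region used 15 genes of that chromosome chosen by their p between genotype labels in the opposite region, scaled to 0 for the median WT vehicle and 1 for the median KO-labelled inhibitor array, with sides divided at 0.5. Title numbers are shared by striatum and hippocampus. Over 20 same-numbered pairs, deviations from the group means correlated from -0.38 to 0.31, with 6 over 0.1, so numbers were not taken as pairs.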

Additional observations from a re-analysis of the deposited data

Results flagged for a closer look

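In each group of 4 to 6 arrays, the array lying farthest from the others was looked for in the 36 named potassium channel genes. Of 288 combinations of gene and group, 25 (8.68%) held such an array by Dixon's test; chance gives about 5%. Genes of an array are not independent of each other.

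Array 25 of KO-labelled vehicle striatum held 5 of the 25: it was highest in Kcnip2 (12.16), Kcnj4 (9.78; the others reached 8.76) and Kcns2 (8.97), and lowest in Kcnd3 (8.08) and Kcnip4 (7.83). Its chromosome 17 score was 0.08, on the WT side, and its vascular marker mean was 8.66. Array 26 of that group was lowest in Kcnk15 (3.97). In WT inhibitor striatum, array 11 was highest in Kcne2 (8.29) and Kcnj13 (9.34) and had the highest choroid plexus marker mean of its group (9.10), and array 10 was lowest in Kcnab1 (11.22) and Kcnd2 (10.80). In WT vehicle striatum, array 4, with the highest Gapdh difference, was lowest in Kcnip4 (8.16) and Kcnma1 (8.15), and array 5 was highest in Kcns3 (6.39).

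In hippocampus, WT vehicle array 1 was lowest in Kcnc2 (9.79) and Kcnma1 (9.12) and array 4 highest in Kcnab2 (11.80). WT inhibitor array 10 was highest in Kcna4 (8.36) and array 13, low in hippocampal markers, highest in Kcnmb4 (10.14). KO-labelled vehicle array 26 was highest in Kcnh8 (5.26), array 28 lowest in Kcnd2 (10.27), and array 30 highest in Kcnip2 (10.57) and lowest in Kcnn2 (9.12). KO-labelled inhibitor array 35 was lowest in Kcnip4 (9.23), and array 36 was highest in Kcnh8 (5.13) and lowest in Kcnj4 (7.43). Kcnh8 lies on chromosome 17.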

How the results depend on the processing

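Counts of potassium channel genes past the threshold moved as follows. With array weights, 3 passed for the inhibitor in WT striatum, 2 for the KO label and 2 for treated KO-labelled against WT vehicle in striatum, and 4 for the region dependence of the inhibitor, beside 1.07%, 0.478%, 0.484% and 3.39% of all genes. Without the arrays on the other side of the chromosome 17 score, these were 7, 3, 2 and 5, and 3 passed for the genotype dependence of the inhibitor. Without the highest Gapdh array of each striatal group they were 1, 0, 0 and 3, beside 0.473%, 0%, 0.022% and 1.54%. With only the groups compared, 0 passed for the KO label (0.0495%). The Kcn genes above the median signal numbered 38. Of these, 24, 28, 25 and 22 differed between regions in WT vehicle, WT inhibitor, KO-labelled vehicle and KO-labelled inhibitor mice. Of all genes above the median signal, 51.3%, 55.8%, 44.4% and 43.2% did. The cause of these moves in the counts was not tested. Leaving out each array in turn gave 37 to 42, 41 to 47, 35 to 40 and 28 to 42 for the region in the same order of groups. The share of all genes moved too, over 26.6% to 37.1%, 33.3% to 35%, 24.1% to 26.4% and 19.8% to 27.7%. For the KO label in striatum it gave 0 to 2, and for treated KO-labelled against WT vehicle striatum 0 to 1. The shares of all genes in these fits are not given here. Each remaining comparison gave 0. No called value of a named gene changed sign under the alternatives run. Of 2095 values of named genes under an alternative, 57 lost and 5 gained a call, and 6 that were not called changed sign (between regions, Kcns2 in KO-labelled vehicle mice, from 0.03 to between -0.07 and -0.01, and Kcnh8 in KO-labelled inhibitor mice, from -0.05 to 0.02 and 0.05). A replicate block on the title number (consensus correlation 0.00403) left the regional counts at 40, 47, 38 and 38, and the tests of region dependence at 0. The number of arrays and the signal of dim probe sets limit what could be detected.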
